A study of Homo sapiens with 12 samples.

Results

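The genes described here make up the machinery that cuts, transports and loads peptides for major histocompatibility complex (MHC) class I. They are 10 named genes: the immunoproteasome subunits PSMB8, PSMB9 and PSMB10, the peptide transporter genes TAP1 and TAP2, tapasin (TAPBP), the light chain B2M, the non-classical heavy chains HLA-E and HLA-F, and the regulator NLRC5. The genes were chosen by name and function, as 10 of the 19775 genes measured on probe sets of 1 gene, and every such probe set of theirs was read, 21 in all. Expression was measured in 4 lines of SKBR-3 origin, a HER2-amplified human breast cancer line, with 3 biological replicates and hence 3 arrays a line. SKR6LR was obtained by keeping SKR6 for several months in lapatinib, an inhibitor of the HER2 and EGFR kinases, at concentrations raised from 0.2 to 5 µM. SKR6CA was SKR6 carrying a retrovirus for CAp65, the NF-kB subunit relA/p65 in a constitutively active version, and had been selected with puromycin. SKR6-Vector was SKR6 with the empty pQCXIP retrovirus and the same puromycin selection. SKR6 itself was a fraction of SKBR-3 sorted for high HER2, so all 4 lines share that sort. All were grown for 48 hours in medium with 10% serum before RNA was taken. The growth protocol keeps cells it calls SKLR in 0.2 µM lapatinib, a name not otherwise used; if these are SKR6LR, the drug was present in that line alone. The labels do not say whether a line was derived more than once, and p-values measure the spread between its replicates.

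Most nucleated cells show peptides from their own proteins on class I molecules. Proteasomes cut the proteins, and after interferon gamma signalling the catalytic subunits PSMB5, PSMB6 and PSMB7 are replaced in new particles by PSMB8, PSMB9 and PSMB10, which changes the cuts made. The heterodimer of TAP1 and TAP2 carries the peptides into the endoplasmic reticulum, tapasin holds empty heavy chains beside it, and a heavy chain leaves for the cell surface once bound to B2M and a peptide. NLRC5 is a transactivator that joins the RFX complex on class I promoters and drives many genes of the set together.

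In RefSeq's gene order TAP2, PSMB8, TAP1 and PSMB9 are neighbours on chromosome 6, inside the MHC. RefSeq promoter windows (build GRCh38.p14, 250 bases before to 50 after a start) were held for 8 of the 10 genes, in 10 windows; HLA-E and NLRC5 had none in the table used. Shown are those of the divergent neighbours TAP1 and PSMB9, which face each other across a short stretch of DNA. Their starts lie 487 bases apart, and as cut at 250 bases the windows differ in the motifs they hold. Those of TAPBP, B2M and PSMB10 are shown as the other kinds of motif content among the genes. Each is written 5′ to 3′ on the gene's strand, with capitals for matches to GAAANNGAA, the core of an interferon-stimulated response element, or to GGGNNTTTC, a kB element, on either strand.
TAP1 (chr6:32853655-32853954, minus strand): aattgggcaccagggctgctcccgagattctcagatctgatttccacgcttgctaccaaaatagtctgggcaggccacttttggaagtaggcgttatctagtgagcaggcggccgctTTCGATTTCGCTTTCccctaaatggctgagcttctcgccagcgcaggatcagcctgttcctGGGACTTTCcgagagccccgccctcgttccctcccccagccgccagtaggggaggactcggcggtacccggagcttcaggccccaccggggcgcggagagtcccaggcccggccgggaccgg
PSMB9 (chr6:32853942-32854241, plus strand): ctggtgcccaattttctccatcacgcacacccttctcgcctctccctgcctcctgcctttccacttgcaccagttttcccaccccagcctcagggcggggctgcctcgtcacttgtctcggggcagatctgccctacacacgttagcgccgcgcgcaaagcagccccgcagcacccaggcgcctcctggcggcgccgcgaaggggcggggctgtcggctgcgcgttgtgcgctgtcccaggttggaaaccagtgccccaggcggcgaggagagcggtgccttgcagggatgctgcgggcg
TAPBP (chr6:33314029-33314328, minus strand): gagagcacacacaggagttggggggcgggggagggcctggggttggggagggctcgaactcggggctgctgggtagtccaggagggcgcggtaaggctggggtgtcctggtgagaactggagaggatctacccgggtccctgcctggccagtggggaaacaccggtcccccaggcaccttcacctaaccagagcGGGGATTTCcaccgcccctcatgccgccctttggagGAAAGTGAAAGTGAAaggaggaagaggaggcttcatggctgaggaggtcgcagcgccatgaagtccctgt
B2M (chr15:44711267-44711566, plus strand): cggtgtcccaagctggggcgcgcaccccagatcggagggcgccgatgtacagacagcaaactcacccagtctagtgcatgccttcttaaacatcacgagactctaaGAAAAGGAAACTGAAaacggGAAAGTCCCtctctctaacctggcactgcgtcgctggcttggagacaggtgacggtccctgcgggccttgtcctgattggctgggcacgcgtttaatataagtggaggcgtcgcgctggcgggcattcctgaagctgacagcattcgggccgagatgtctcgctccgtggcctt
PSMB10 (chr16:67936801-67937100, minus strand): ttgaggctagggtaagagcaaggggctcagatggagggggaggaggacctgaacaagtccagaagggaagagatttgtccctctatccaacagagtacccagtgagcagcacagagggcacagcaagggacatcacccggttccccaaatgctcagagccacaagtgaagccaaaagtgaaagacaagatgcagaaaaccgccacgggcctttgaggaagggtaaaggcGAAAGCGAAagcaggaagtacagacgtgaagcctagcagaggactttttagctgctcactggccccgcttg

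GAAANNGAA was found in 7 of the 10 windows, 1 for each of the 8 genes except PSMB9, and in 8.11% of all 35116 promoter windows. GGGNNTTTC was found in 3 of the 10, those of TAP1, TAPBP and B2M shown here, and in 4.78% of all windows. In TAP1 the kB match began 72 bases before the start and the overlapping pair of interferon-type matches began 133 and 127 bases before it. These TAP1 matches lie between the TAP1 and PSMB9 starts but outside the PSMB9 window. That window therefore does not show that the DNA before the PSMB9 start lacks them. TAPBP held its kB match 56 bases before the start, and B2M 124 bases before it. The interferon-type matches of TAPBP and of B2M were overlapping pairs as in TAP1. PSMB10 had its interferon-type match 21 bases before the start and TAP2 had one 58 bases before it, neither with a kB match in its window. Another 3 motifs were searched. TTCNNNGAA (gamma-activated site) was in 2 of the 10 windows and 7.66% of all. TGACG (the core of a CRE) was in 4 of the 10 and 24.6%, and CCAAT in 4 of the 10 and 34.6%. The TAP1 and PSMB9 windows overlap at their outer ends, where the same CCAAT site is counted in both. A match is a string of letters in these windows and was not tested as a binding site, and the motifs were chosen with the sequences in hand.

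Values are log2 expression on the RMA scale, on which the median of all values was 5.76 and a difference of 1 is a 2-fold change. Array medians ran from 5.74 to 5.77. The SKR6LR arrays varied most among themselves, with a replicate SD over all probe sets of 0.205, against 0.118 in SKR6CA, 0.105 in SKR6-Vector and 0.107 in SKR6. Replicate 3 of SKR6LR also had a larger 3′ over 5′ actin difference, 2.319, than the other 11 arrays, at 1.031 to 1.726. The mean of 6 epithelial markers was 12.01 to 12.26 in SKR6LR arrays, 12.44 to 12.49 in SKR6CA, 12.45 to 12.46 in SKR6-Vector and 12.30 to 12.32 in SKR6, with CDH1 near the low end of the scale at line means of 4.24 to 4.28. In SKR6LR over SKR6 the keratin gene KRT19 fell by 0.94 (adjusted p = 1.17e-06) and ERBB2, the HER2 gene, by 1.38 (adjusted p = 6.73e-10), while KRT18 rose by 0.63. Of 9 leukocyte markers 8 were measured, and their mean was 5.20 to 5.26 in SKR6LR arrays, 4.96 to 5.05 in SKR6CA, 5.02 to 5.05 in SKR6-Vector and 4.99 to 5.08 in SKR6. Their defining gene PTPRC stayed at line means of 3.98 to 4.22, and CD14 rose by 1.72 in SKR6LR over SKR6. Of the 3 endothelial markers, CDH5 rose over SKR6 by 3.83 in SKR6LR, 3.08 in SKR6CA and 2.96 in SKR6-Vector, VWF rose by 0.62 in SKR6LR and PECAM1 did not pass there (-0.021). The 4 fibroblast markers had list means of 5.93 to 5.99 in SKR6LR arrays and 6.06 to 6.13 in SKR6 arrays. The part of these shifts in the results was not tested. The RELA transcript did not pass the test between SKR6CA and SKR6-Vector on either probe set. The differences were -0.056 (adjusted p = 0.789) and 0.20 (adjusted p = 0.259). In SKR6CA over SKR6 they were 0.18 (adjusted p = 0.2575) and 0.42 (adjusted p = 0.0168), of which the latter passed. These arrays thus do not check the transgene, and whether the probes match it is not given.

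SKR6LR expressed all 10 genes above SKR6. The immunoproteasome subunit PSMB9 stood 17.3-fold higher, TAP1 7.62-fold and TAP2 6.12-fold, while B2M, already near the top of the scale in every line, was 1.52-fold higher. In RNA from whole cultures, more transcript in every cell and a larger share of cells with much transcript cannot be told apart. By limma with Benjamini-Hochberg adjustment over all 54613 probe sets, 10 of 10 genes rose and 0 fell at an adjusted p under 0.05, where 20.8% of all genes rose. All 10 also had their lowest SKR6LR array above their highest SKR6 array, as did 23.0% of all genes. The median difference was 2.01 over the 10 genes and -0.058 over all genes.

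SKR6CA, set against SKR6-Vector, showed a narrower change. PSMB8, PSMB10, TAP2 and PSMB9 rose by 0.77 to 0.89 on the log2 scale, whereas B2M, HLA-E, HLA-F and NLRC5 had differences between -0.0030 and 0.23. In counts, 4 of 10 genes rose and 0 fell, where 10.6% of all genes rose. In 6 of 10 genes all SKR6CA arrays lay above all SKR6-Vector arrays, as they did in 21.3% of all genes. The median difference was 0.32 over the 10 genes and 0.0033 over all genes.

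**Figure D1:**
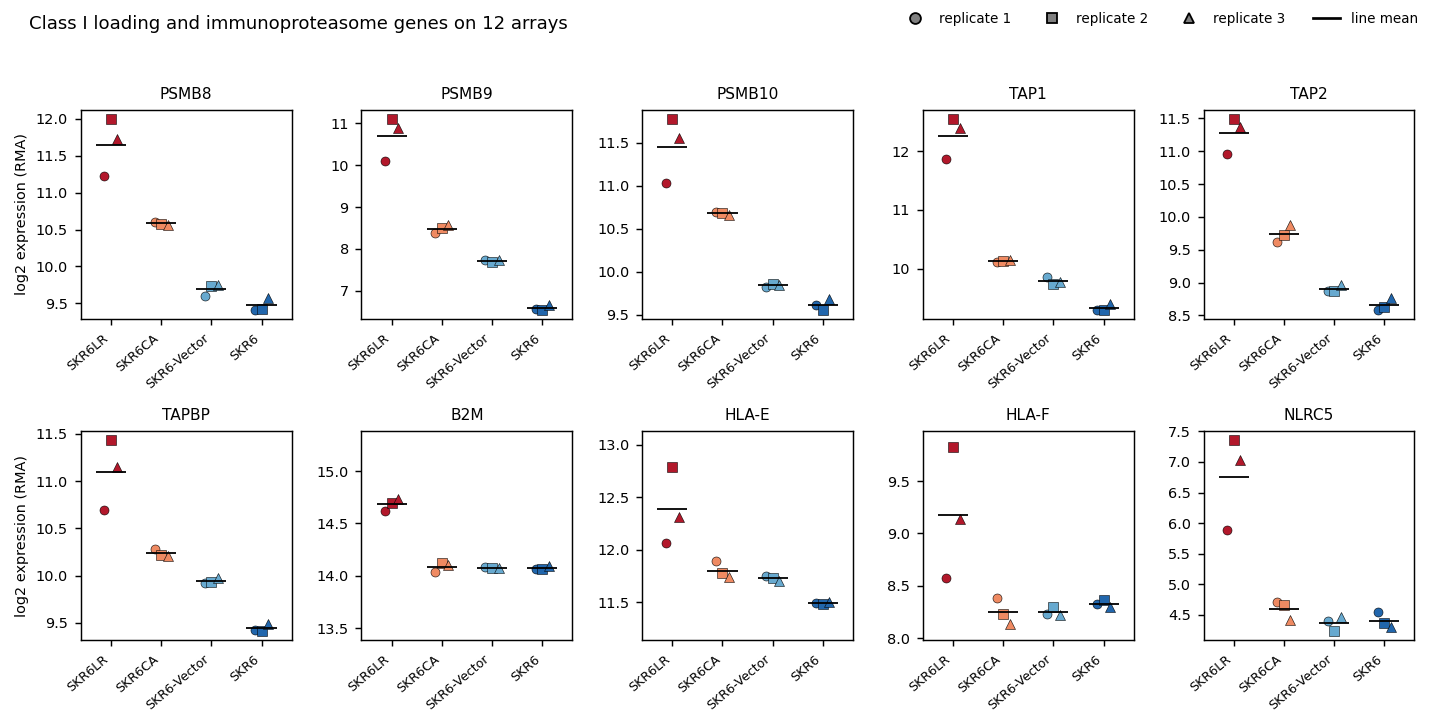
Log2 expression (RMA scale, vertical axis) of the 10 genes on each array, by line (horizontal axis), with 1 panel a gene and its own axis range, symbols for the replicate and a bar for the line mean. Each gene is shown by its brightest probe set. PSMB8, PSMB9, PSMB10, TAP1, TAP2 and TAPBP step down from SKR6LR to SKR6 without overlap of arrays. B2M, HLA-F and NLRC5 are higher in SKR6LR than in the other lines, which overlap.

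PSMB9, which replaces PSMB6 in the immunoproteasome, had log2 values of 10.11, 11.10 and 10.90 in SKR6LR, 8.39, 8.51 and 8.57 in SKR6CA, 7.74, 7.69 and 7.73 in SKR6-Vector, and 6.57, 6.55 and 6.66 in SKR6. The 4 lines were fully separate, and the vector line already lay above its parent. The differences were 4.11 for SKR6LR over SKR6 (SE 0.183, adjusted p = 6.68e-10), 0.77 for SKR6CA over SKR6-Vector (SE 0.183, adjusted p = 0.00892) and 1.13 for SKR6-Vector over SKR6 (SE 0.183, adjusted p = 0.000760).

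PSMB8, the counterpart of PSMB5, had 11.23, 11.996 and 11.72 in SKR6LR, 10.60, 10.58 and 10.57 in SKR6CA, 9.60, 9.74 and 9.75 in SKR6-Vector, and 9.41, 9.42 and 9.58 in SKR6. Its SKR6-Vector arrays lay just above those of SKR6, a difference of 0.23 that did not pass (adjusted p = 0.362). SKR6LR exceeded SKR6 by 2.18 (SE 0.144, adjusted p = 3.55e-08) and SKR6CA exceeded SKR6-Vector by 0.89 (SE 0.144, adjusted p = 0.000652).

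PSMB10, the counterpart of PSMB7 and encoded on chromosome 16 away from the MHC, had 11.03, 11.77 and 11.56 in SKR6LR, 10.69, 10.69 and 10.66 in SKR6CA, 9.83, 9.86 and 9.84 in SKR6-Vector, and 9.61, 9.56 and 9.68 in SKR6. It followed the order of lines seen for its partners. The rise was 1.84 in SKR6LR over SKR6 (SE 0.138, adjusted p = 1.27e-07) and 0.84 in SKR6CA over SKR6-Vector (SE 0.138, adjusted p = 0.000715).

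The constitutive catalytic subunits went the other way in SKR6LR: 3 of 3 fell against SKR6, where 29.8% of all genes fell. Against SKR6-Vector, 0 of 3 passed in SKR6CA. Against SKR6, 2 of 3 fell in SKR6-Vector and 2 of 3 in SKR6CA, where 11.7% and 12.9% of all genes fell. PSMB5, which carries the chymotrypsin-like activity, had 11.93, 11.90 and 11.98 in SKR6LR, against 12.48, 12.46 and 12.49 in SKR6, and fell by 0.54 (SE 0.0607, adjusted p = 6.62e-06). PSMB6 fell by 0.63 and PSMB7 by 0.28. None of their SKR6LR arrays reached the SKR6 arrays. Of 10 other core subunits measured, 5 fell and 0 rose in SKR6LR over SKR6, led by PSMB2 and PSMA7, lower by 0.53 and 0.49. Also 5 fell and 0 rose in SKR6-Vector over SKR6, and 4 fell and 0 rose in SKR6CA over SKR6. In SKR6CA over SKR6-Vector 2 rose and 2 fell, where 13.8% of all genes fell, with PSMB2 higher by 0.28 and PSMB1 lower by 0.27. Neither passed in SKR6CA over SKR6 (-0.081 and -0.16). Among 8 activator and assembly genes 3 rose and 2 fell in SKR6LR over SKR6, where 20.8% of all genes rose and 29.8% fell. PSMG4, an assembly gene, rose most, by 0.85, and POMP, the proteasome maturation factor, fell by 0.73. PSME1, a subunit of the interferon-induced 11S activator that works with the immunoproteasome, had 12.99, 13.31 and 13.21 in SKR6LR, against 12.35, 12.39 and 12.42 in SKR6, and rose by 0.79 in SKR6LR over SKR6 (adjusted p = 1.67e-06).

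**Figure D2:**
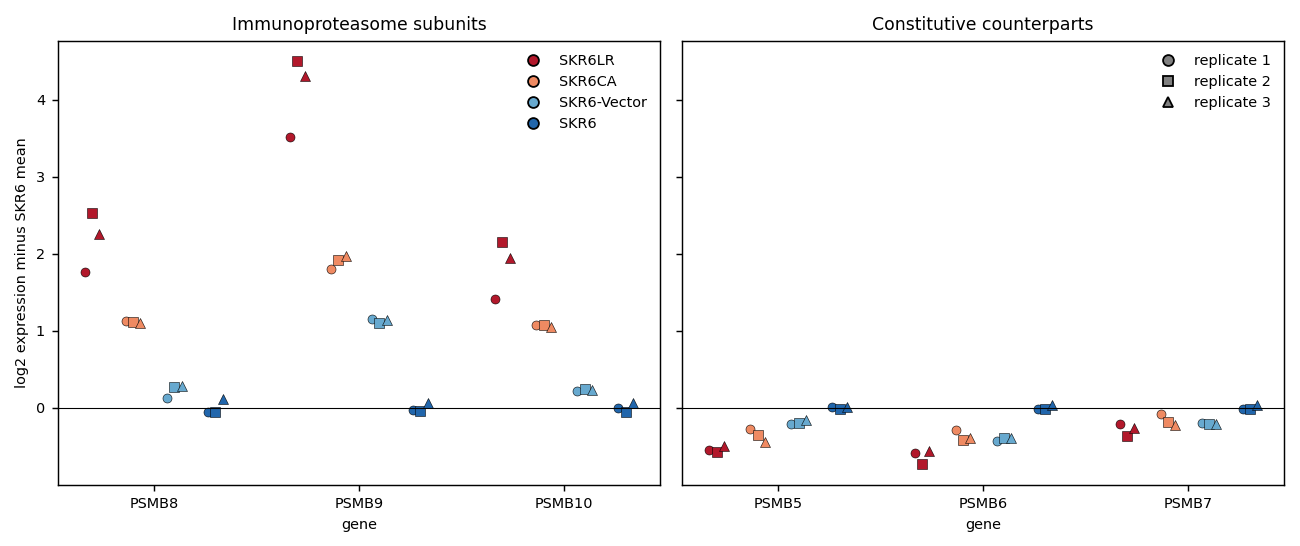
Log2 expression of 3 immunoproteasome subunits (left) and their constitutive counterparts (right) on each array, as the difference from the gene's own SKR6 mean (vertical axis), with colours for lines and symbols for replicates. The immunoproteasome subunits lie above 0 in SKR6LR, SKR6CA and SKR6-Vector, and the constitutive subunits lie below 0 in the same lines.

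TAP1, one chain of the peptide transporter, had 11.86, 12.54 and 12.39 in SKR6LR, 10.12, 10.14 and 10.15 in SKR6CA, 9.86, 9.75 and 9.78 in SKR6-Vector, and 9.30, 9.30 and 9.40 in SKR6. The 4 lines did not overlap, but most of the distance lay between SKR6LR and the other lines. SKR6LR exceeded SKR6 by 2.93 (SE 0.132, adjusted p = 7.35e-10). SKR6CA exceeded SKR6-Vector by 0.34, which did not pass (SE 0.132, adjusted p = 0.0982); with the SE taken only from the arrays of those lines the same difference passed (adjusted p = 0.00273), and it also passed without replicate 1 (0.00177) or replicate 2 (0.0390) of SKR6LR, whose spread enters the pooled SE.

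TAP2, the partner chain, had 10.96, 11.49 and 11.37 in SKR6LR, 9.62, 9.72 and 9.87 in SKR6CA, 8.86, 8.88 and 8.96 in SKR6-Vector, and 8.59, 8.63 and 8.77 in SKR6 on its brightest probe set. It passed in both main comparisons, with 2.61 for SKR6LR over SKR6 (SE 0.118, adjusted p = 7.65e-10) and 0.84 for SKR6CA over SKR6-Vector (SE 0.118, adjusted p = 0.000217). Its other 3 probe sets gave 1.43, 1.08 and 0.21 for SKR6LR over SKR6, the last, 208428_at, not passing (adjusted p = 0.150) at levels of 4.47 to 5.53, below the median of the scale. That probe set did rise by 0.65 in SKR6CA over SKR6-Vector.

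TAPBP, the bridge between heavy chain and transporter, had 10.69, 11.43 and 11.15 in SKR6LR, 10.28, 10.22 and 10.20 in SKR6CA, 9.92, 9.93 and 9.97 in SKR6-Vector, and 9.42, 9.41 and 9.48 in SKR6. On its brightest probe set, read here, TAPBP had separate lines, and the largest step was that up to SKR6LR. It rose by 1.65 in SKR6LR over SKR6 (SE 0.134, adjusted p = 2.72e-07) and by 0.50 in SKR6-Vector over SKR6 (adjusted p = 0.0198), and its 0.29 in SKR6CA over SKR6-Vector did not pass (adjusted p = 0.170). That last difference passed with the SE of the compared arrays alone (adjusted p = 0.00487) and without SKR6LR replicate 1 (0.0112) or 2 (0.0426). A dimmer probe set, 210294_at, put SKR6LR level with SKR6CA, a difference of -0.030 (95% interval -0.222 to 0.163), where the brightest gave 0.86.

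Of 6 measured genes for other loading chaperones and for peptide trimming, 3 rose and 2 fell in SKR6LR over SKR6 (all genes, 20.8% and 29.8%), and 5 rose and 0 fell in SKR6CA over SKR6-Vector (10.6% and 13.8%). ERAP1, an aminopeptidase that trims peptides in the endoplasmic reticulum, had 10.10, 10.16 and 10.42 in SKR6LR and rose by 1.91 over SKR6. In SKR6CA it had 9.01, 9.18 and 9.15, against 8.76, 8.78 and 8.86 in SKR6-Vector, and rose by 0.31, or by 0.80 over SKR6. TAPBPL, a tapasin-related peptide editor, rose by 0.79 in SKR6LR over SKR6 and by 0.96 in SKR6CA over SKR6-Vector. ERAP2, a second trimming aminopeptidase, rose by 0.69 in SKR6CA over SKR6-Vector at levels of 3.91 to 4.85, among the lowest on the scale. The calnexin and calreticulin genes CANX and CALR were the members that fell in SKR6LR, by 0.15 and 0.32, and were named after their values were seen.

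B2M, the light chain of every class I molecule, had 14.62, 14.70 and 14.73 in SKR6LR, 14.04, 14.12 and 14.10 in SKR6CA, 14.08 on each SKR6-Vector array, and 14.07, 14.07 and 14.10 in SKR6. SKR6LR was apart and the other 3 lines lay close together. The rise was 0.60 in SKR6LR over SKR6 (SE 0.0576, adjusted p = 1.39e-06), and the difference of SKR6CA from SKR6-Vector was 0.0074 with a 95% interval of -0.118 to 0.132. These values lie close to the highest on any array, 15.28, where differences can be compressed. A dimmer B2M probe set, 232311_at, had 9.42, 10.07 and 9.93 in SKR6LR, 6.88, 6.72 and 6.77 in SKR6CA, 6.91, 6.46 and 6.61 in SKR6-Vector, and 7.23, 7.24 and 7.18 in SKR6. It put the rise in SKR6LR over SKR6 at 2.59 (SE 0.147, adjusted p = 7.73e-09) and was lower in SKR6-Vector than in SKR6, by 0.56 (adjusted p = 0.0183).

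HLA-E, a heavy chain that presents leader peptides to natural killer cells, had 12.07, 12.79 and 12.31 in SKR6LR, 11.89, 11.78 and 11.74 in SKR6CA, 11.75, 11.73 and 11.70 in SKR6-Vector, and 11.50, 11.49 and 11.50 in SKR6. SKR6LR was above the rest, and SKR6CA and SKR6-Vector overlapped. It rose by 0.89 in SKR6LR over SKR6 (SE 0.133, adjusted p = 8.83e-05), with 0.87 and 0.77 on its other probe sets. The 0.072 of SKR6CA over SKR6-Vector had a 95% interval of -0.217 to 0.361. On the dimmest HLA-E probe set, 200904_at, SKR6LR overlapped SKR6CA. There SKR6CA lay above SKR6-Vector without overlap, by 0.29, which did not pass (adjusted p = 0.287).

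HLA-F, a heavy chain that can reach the surface without peptide, had 8.57, 9.82 and 9.14 in SKR6LR, 8.38, 8.23 and 8.14 in SKR6CA, 8.23, 8.30 and 8.22 in SKR6-Vector, and 8.32, 8.36 and 8.30 in SKR6. The SKR6LR arrays spread widely and the lowest was only just above the other lines. The rise over SKR6 was 0.85 (SE 0.216, adjusted p = 0.00563), and it was 0.53 without SKR6LR replicate 2 (adjusted p = 0.00583). The third HLA-F probe set, 221978_at, lay between 4.22 and 4.90 in all lines and gave 0.062 (adjusted p = 0.771). The brightest HLA-E and HLA-F probe sets end in _x_at, a mark that their probes can also bind related transcripts, so heavy chain signals are not fully separate.

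Of the other class I heavy chains, HLA-B, HLA-C and HLA-G were analysed, and 3 of 3 rose in SKR6LR over SKR6, as did 20.8% of all genes, while 0 passed in SKR6CA over SKR6-Vector, where 10.6% rose. Their probe sets are also of the _x_at kind. HLA-C, a classical heavy chain, had 11.08, 12.09 and 11.79 in SKR6LR, 9.25, 9.18 and 9.25 in SKR6CA and 9.15, 9.12 and 9.19 in SKR6-Vector, and rose by 2.47 in SKR6LR over SKR6 (SE 0.180, adjusted p = 9.49e-08). HLA-B rose by 2.24 in the same comparison (adjusted p = 5.43e-06), with SKR6LR values of 10.40, 11.86 and 11.26 and SKR6CA values of 9.07 to 9.12. Both heavy chains were above all arrays of the other lines in SKR6LR, as B2M was.

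NLRC5 had 5.88, 7.35 and 7.03 in SKR6LR, 4.71, 4.65 and 4.41 in SKR6CA, 4.40, 4.24 and 4.46 in SKR6-Vector, and 4.54, 4.36 and 4.29 in SKR6. It was above the median of the scale in SKR6LR and well below it on all 9 arrays of the other lines, which overlapped. SKR6LR exceeded SKR6 by 2.36 (SE 0.270, adjusted p = 7.73e-06), and SKR6CA exceeded SKR6-Vector by 0.23 with a 95% interval of -0.357 to 0.812 (adjusted p = 0.674).

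**Figure D3:**
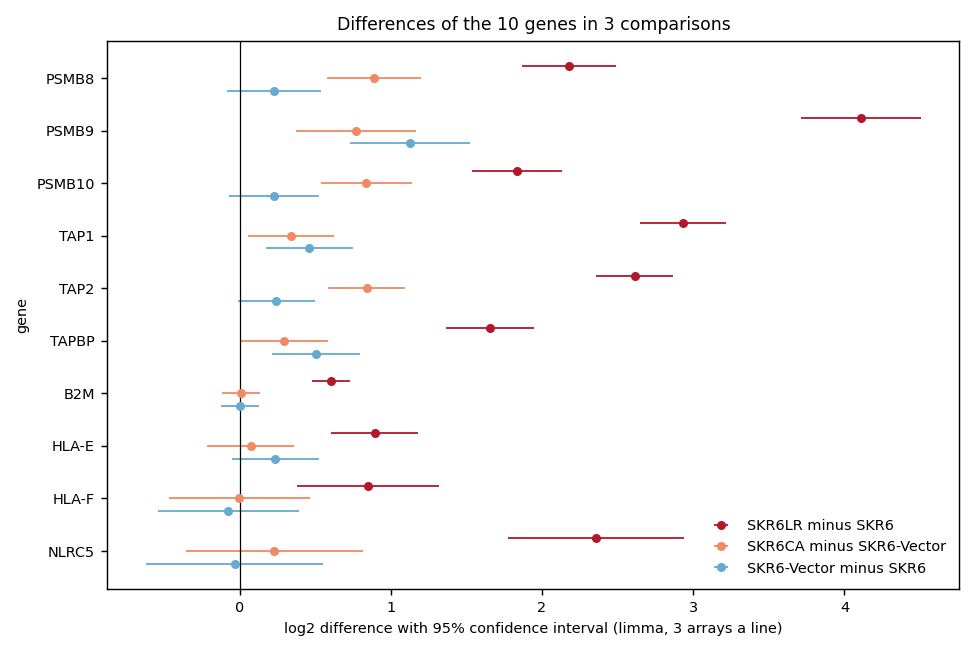
Log2 differences (horizontal axis, points, with 95% confidence intervals from limma) of the 10 genes (vertical axis) for SKR6LR over SKR6, SKR6CA over SKR6-Vector and SKR6-Vector over SKR6. The intervals for SKR6LR all lie above 0, and in SKR6CA over SKR6-Vector those of the immunoproteasome subunits, TAP2, TAP1 and, narrowly, TAPBP lie above 0 while those of B2M, HLA-E, HLA-F and NLRC5 span it. The intervals are not adjusted for the number of tests, and TAP1 and TAPBP did not pass after adjustment.

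The vector line set the level from which SKR6CA was measured. In SKR6-Vector over SKR6, 3 of 10 genes rose, namely PSMB9, TAPBP and TAP1 by 1.13, 0.50 and 0.46, where 11.2% of all genes rose, and 0 fell. In 7 of 10 genes all SKR6-Vector arrays lay above all SKR6 arrays, as they did in 22.3% of all genes. The call for TAP1 was lost without any 1 array of either line, and that for TAPBP without any but SKR6 replicate 3; without SKR6 replicate 1, for example, the adjusted p was 0.0867 for TAP1 and 0.0629 for TAPBP. PSMB9 then stayed called, and with only the arrays of those lines the count was 7. Against the untransduced SKR6, SKR6CA had 6 of 10 genes higher and 0 lower, where 8.87% of all genes rose. The 6 were PSMB9, PSMB8, TAP2, PSMB10, TAP1 and TAPBP, at 1.90, 1.11, 1.08, 1.06, 0.80 and 0.80. Both comparisons use the SKR6 arrays.

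SKR6LR also exceeded SKR6CA in 10 of 10 genes, where 21.0% of all genes were higher, by 0.59 for HLA-E and B2M up to 2.16 for NLRC5 and 2.21 for PSMB9. PSMB10 came closest to meeting among the immunoproteasome subunits, with its lowest SKR6LR array at 11.03 and its highest SKR6CA array at 10.69. The difference between SKR6LR minus SKR6 and SKR6CA minus SKR6-Vector, which share no arrays, was also tested. It was above 0 in 10 of 10 genes, where 19.0% of all genes were higher, from 0.59 for B2M (adjusted p = 6.03e-05) to 3.34 for PSMB9 (adjusted p = 2.98e-07). The dimmer B2M probe set 232311_at gave 2.46 (adjusted p = 6.82e-07). For HLA-F it was 0.85 (adjusted p = 0.0446), a call lost when any array of SKR6, SKR6-Vector or SKR6CA or replicate 3 of SKR6LR was left out (adjusted p = 0.0559 to 0.0929), and it was 0.53 without SKR6LR replicate 2 (adjusted p = 0.0330). The HLA-F call was also lost with a mean-variance trend and robust fitting (adjusted p = 0.0658), with the mean of its probe sets (0.63, adjusted p = 0.0582) and without _x_at and _s_at probe sets (0.14, adjusted p = 0.636), and under that last choice HLA-E gave 0.48 (adjusted p = 0.119).

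An order of SKR6 lowest, then SKR6-Vector, SKR6CA and SKR6LR, with no overlap of arrays at any step, was held by 6 of 10 genes, namely the 3 immunoproteasome subunits, TAP1, TAP2 and TAPBP. It was held by 0.850% of all genes. Each gene is read here on its brightest probe set, and no other probe set of TAP2 or TAPBP held the order. On 208428_at of TAP2 and 210294_at of TAPBP the highest line mean was that of SKR6CA. All 3 steps passed the test for PSMB9 alone, as for 0.238% of all genes. B2M and HLA-E had the same order of means with overlapping arrays, and HLA-F and NLRC5 had another order among the lower lines, where neighbours did not differ beyond their spread. This order was described after the values were seen.

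Within SKR6LR, replicate 1 was the lowest array for 10 of 10 genes and replicate 2 the highest for 9, B2M being the exception. Over all genes, replicate 1 was lowest for 37.5% and replicate 2 highest for 34.3%. The range among the SKR6LR arrays was 0.12 for B2M, 0.99 for PSMB9 and 1.48 for NLRC5. The genes thus varied together between cultures of that line, and the part of any technical difference in this was not tested. Leaving out replicate 1 or any other single array kept 10 of 10 genes higher in SKR6LR than in SKR6.

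**Figure D4:**
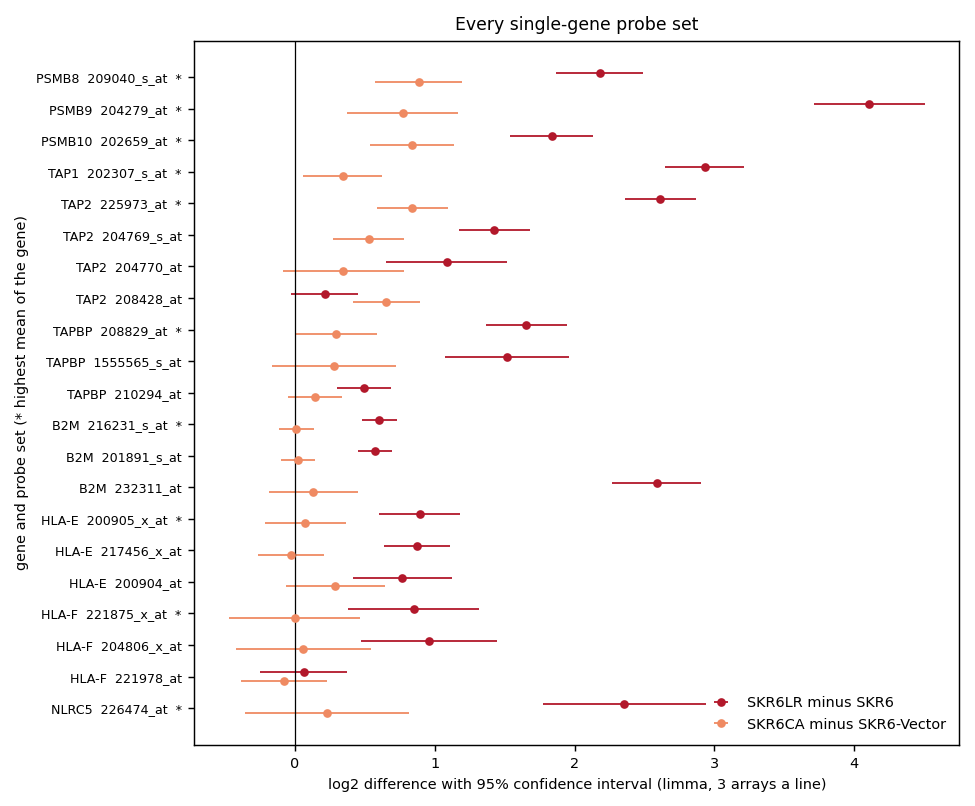
Log2 differences (horizontal axis, points, with 95% confidence intervals from limma) for every single-gene probe set of the 10 genes (vertical axis, a star marking the brightest of each gene) for SKR6LR over SKR6 and SKR6CA over SKR6-Vector. The SKR6LR intervals lie above 0 for 19 of 21 probe sets, and the exceptions are 208428_at of TAP2 and 221978_at of HLA-F.

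Over the 21 probe sets, 19 rose and 0 fell in SKR6LR over SKR6, where 19.0% of all probe sets rose, and 6 rose and 0 fell in SKR6CA over SKR6-Vector, where 9.14% rose. In the difference between these comparisons 17 were higher and 1 lower, where 16.0% of all probe sets were higher and 20.1% lower. The lower one was 208428_at of TAP2. Probe sets of 1 gene share its transcripts and are not independent.

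Genes of interferon and NF-kB signalling and of class I promoter regulation moved unevenly. In the list of interferon receptor, JAK, STAT and IRF genes, 6 of 12 measured rose and 3 fell in SKR6LR over SKR6, where 20.8% of all genes rose and 29.8% fell. In SKR6CA over SKR6-Vector 6 rose and 2 fell, where the shares were 10.6% and 13.8%. IRF1 is a transcription factor that binds interferon-stimulated response elements, whose core GAAANNGAA is among the capitals above. Its values were 8.88, 9.77 and 9.41 in SKR6LR and 8.71, 8.77 and 9.13 in SKR6CA. They were 8.23, 8.19 and 8.11 in SKR6-Vector, and 7.25, 7.30 and 7.30 in SKR6. IRF1 rose by 2.07 in SKR6LR over SKR6 (SE 0.173, adjusted p = 3.71e-07). The rise was 0.70 in SKR6CA over SKR6-Vector (adjusted p = 0.0119), and SKR6LR overlapped SKR6CA. SKR6-Vector was itself above SKR6 by 0.89 (adjusted p = 0.00283).

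IRF9, the DNA-binding part of the type I interferon complex ISGF3, had 10.95, 11.91 and 11.46 in SKR6LR, 9.64, 9.61 and 9.65 in SKR6CA, 8.08, 8.26 and 8.15 in SKR6-Vector, and 8.47, 8.81 and 8.98 in SKR6. It rose by 2.69 in SKR6LR over SKR6 (adjusted p = 6.27e-08) and by 1.47 in SKR6CA over SKR6-Vector (adjusted p = 9.88e-05). SKR6-Vector was lower than SKR6 (-0.59, adjusted p = 0.0473), and SKR6CA over SKR6 gave 0.88 (adjusted p = 0.00578). IRF7, an inducer of type I interferon genes, rose by 1.00 in SKR6CA over SKR6-Vector (adjusted p = 0.00134), but against SKR6 its 0.29 did not pass (adjusted p = 0.334), SKR6-Vector being lower than SKR6 (-0.71, adjusted p = 0.0148). IFNGR1, the ligand-binding chain of the interferon gamma receptor, rose by 2.56 in SKR6LR over SKR6. The genes that fell there were the type I interferon receptor chains IFNAR1 and IFNAR2 and the kinase gene TYK2, by 2.13, 0.39 and 0.55. IFNAR1 had 7.40, 6.77 and 7.44 in SKR6LR, against 9.29, 9.40 and 9.32 in SKR6, and it also fell by 0.80 in SKR6CA over SKR6-Vector (adjusted p = 0.000924).

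Of 3 interferon genes, 2 rose in SKR6LR over SKR6 (all genes, 20.8%) and 0 passed in SKR6CA over SKR6-Vector (all genes, 10.6% higher and 13.8% lower). IFNB1, which encodes interferon beta, had 5.19, 6.15 and 6.14 in SKR6LR, 4.41, 4.50 and 4.68 in SKR6CA and 4.40, 4.63 and 4.41 in SKR6-Vector, and rose by 1.20 in SKR6LR over SKR6 (adjusted p = 0.000247). IFNL1, a type III interferon, had 5.65, 7.53 and 6.85 in SKR6LR and rose by 1.43 (adjusted p = 0.00298). Both were lowest in SKR6LR replicate 1, where the 10 genes were lowest too, and their levels in the other lines lay under the median of the scale.

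Of 5 NF-kB subunit genes, 4 rose in SKR6LR over SKR6 (all genes, 20.8%) and 3 in SKR6CA over SKR6-Vector (10.6%), with 0 falling in either (29.8% and 13.8%). RELB, the partner of p52 in the non-canonical pathway, had 8.03, 8.46 and 8.07 in SKR6LR, 7.23, 7.11 and 7.38 in SKR6CA and 6.40, 6.55 and 6.57 in SKR6-Vector. It rose by 1.79 in SKR6LR over SKR6 and by 0.73 in SKR6CA over SKR6-Vector. NFKB2, which encodes the p52 precursor, rose by 0.77 in SKR6LR over SKR6 (adjusted p = 0.0213), and REL, another subunit, rose by 0.46 in SKR6CA over SKR6-Vector.

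Of 8 measured factors of the class I and class II promoters, among them the RFX complex that NLRC5 joins, 6 fell and 1, NFYA, rose in SKR6LR over SKR6, where 29.8% of all genes fell and 20.8% rose. RFX5, the DNA-binding subunit of the RFX complex, had 9.14, 9.15 and 9.13 in SKR6LR, against 10.42, 10.40 and 10.41 in SKR6, and fell by 1.27 (SE 0.0556, adjusted p = 5.73e-10). In SKR6CA it had 10.71, 10.63 and 10.70, against 10.15, 10.20 and 10.22 in SKR6-Vector, and rose by 0.49 (adjusted p = 3.83e-05), or by 0.27 over SKR6. RFXAP, another subunit of the complex, fell by 1.55 in SKR6LR over SKR6, and NFYB, a subunit of the CCAAT-binding factor NF-Y, fell by 1.46. NFYA, the NF-Y subunit that recognises the CCAAT box, fell by 0.55 in SKR6CA over SKR6-Vector, where 2 of the 8 genes rose and 3 fell (all genes, 10.6% and 13.8%).

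**Figure D5:**
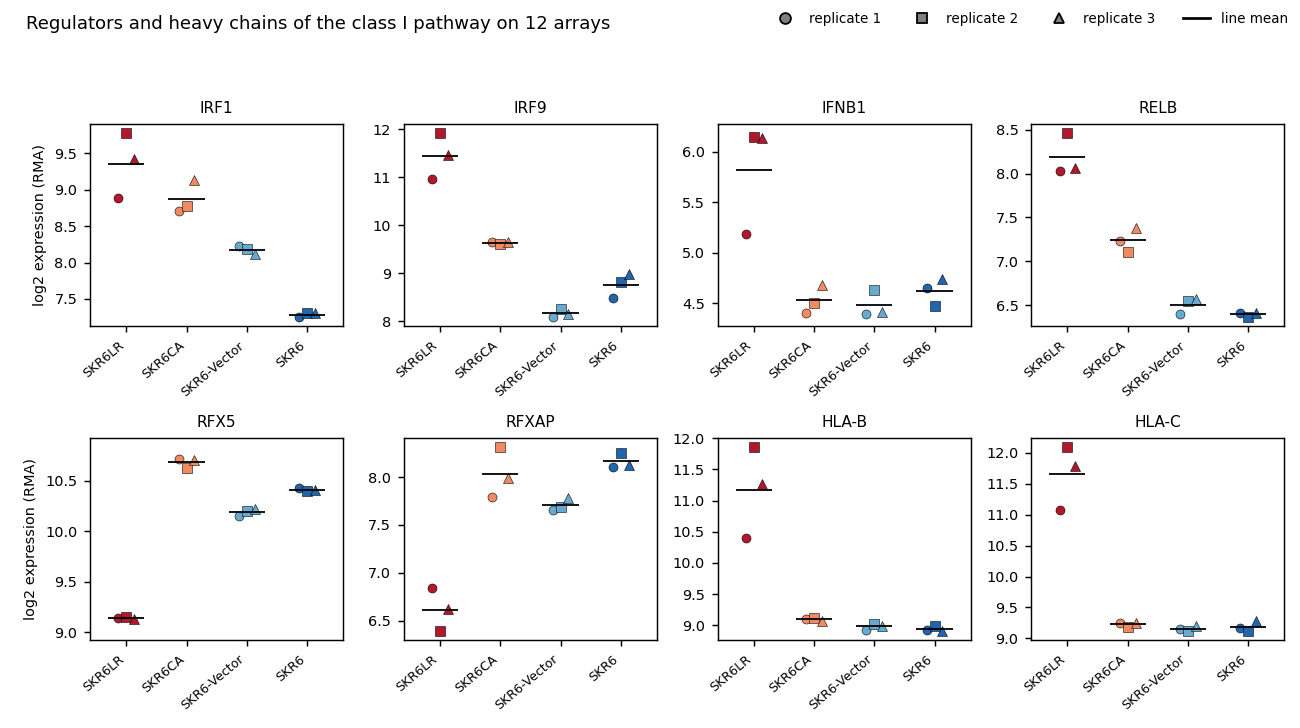
Log2 expression (RMA scale, vertical axis) on each array of 4 regulators and interferon genes (IRF1, IRF9, IFNB1, RELB), 2 RFX subunits (RFX5, RFXAP) and 2 classical heavy chains (HLA-B, HLA-C), by line (horizontal axis), with symbols for replicates and a bar for the line mean. IRF1, IRF9 and RELB are higher in SKR6LR and SKR6CA than in SKR6-Vector and SKR6. IRF1 is also higher and IRF9 lower in SKR6-Vector than in SKR6. IFNB1, HLA-B and HLA-C are higher in SKR6LR than in the other lines, and both RFX subunits are lowest in SKR6LR.

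Likeness to a gene's profile was measured as the root mean square difference between the 4 line means, each profile centred on its own mean, over all 19775 genes. The profile closest to PSMB9 was that of MAP3K20 (0.165), followed by MMP12 (0.215) and XAGE2 (0.230). For TAP1 they were BHLHE40 (0.0931), DAB2 (0.103) and SH3TC2 (0.109). The NF-kB subunit gene RELB was the closest to PSMB10 (0.0814), before DMD (0.103) and STON2 (0.105). NLRC5 was matched by GPR37 (0.0186), NR4A3 (0.0445) and MAP1B (0.0558), all of them high in SKR6LR alone. These are descriptions over 4 line means.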

How the data were processed

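Per the labels' protocols, cDNA primed with oligo-dT was transcribed by T7 polymerase into biotinylated RNA, which was read on 12 arrays. The deposited values are log2 values of 54675 probe sets made by RMA. The submitters' processing notes name RMA and limma without versions. RMA normalises over all arrays, so levels are relative and low values are compressed; the number of arrays limits the precision.

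Gene names came from the array's annotation of 2016, updated by gene ID to RefSeq GRCh38.p14: 41097 had 1 gene, 1801 several and 11777 none, and 41043 gene IDs matched. The deposited log2 values of 54613 probe sets (62 controls left out, no filter on low values) were fitted with limma 3.58.1 in R 4.3.3 (lmFit, eBayes) as 4 line means, with Benjamini-Hochberg adjustment over all probe sets. An adjusted p under 0.05 was a call. Each SE rests on 1 spread for all lines, of which SKR6LR varied most. A gene is counted by its probe set with the highest mean; levels are not compared between genes.

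The genes and lists were chosen with earlier results of these data known. The rule for named genes took all 10 genes, fixed pathway genes (PSMB5, PSMB6, PSMB7, PSME1, IRF1, RFX5), the 2 called genes with the largest difference of every other list, and the 3 nearest profiles of PSMB9, TAP1, PSMB10 and NLRC5; genes named outside it are markers, RELA, CALR and CANX, POMP, IFNAR1, IFNAR2 and TYK2, chosen after their values were seen. Longer forms of the first pair of motifs, and 1 other kB form, were searched first and are not reported. Alternatives were median centring, cyclic loess, array weights, 1 weight per line, a mean-variance trend, the omission of single arrays, the replicate number as a block, only the compared arrays, a filter, other choices of probe set, a stricter threshold and the other control line.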

Additional observations from a re-analysis of the deposited data

Results flagged for a closer look

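For each of the 10 genes SKR6LR minus SKR6 differed from SKR6CA minus SKR6-Vector in the limma test of the difference itself. SKR6LR minus SKR6 was the larger of the 2. For HLA-F (adjusted p = 0.0446) the call was lost in 14 of 23 alternatives, and for HLA-E in 1 of 23, without _x_at and _s_at probe sets. The difference between these comparisons, on the log2 scale, was 3.34 for the immunoproteasome subunit PSMB9, 1.29 for PSMB8 and 0.998 for PSMB10. It was 2.59 for the transporter gene TAP1 and 1.77 for TAP2, and 1.36 for tapasin (TAPBP). It was 2.13 for the regulator NLRC5, 0.852 for HLA-F, 0.820 for HLA-E and 0.595 for the light chain B2M. Of the 21 probe sets of these genes, 17 were higher in this test and 1, 208428_at of TAP2, was lower, where 16.0% of all probe sets were higher and 20.1% lower.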

How the results depend on the processing

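In SKR6LR over SKR6, 10 genes were higher and 0 lower whichever array was left out, and 7 of 8 measured were higher without _x_at and _s_at probe sets, where HLA-F gave 0.062. In SKR6-Vector over SKR6 the 3 genes called higher became 1 to 5 when single arrays were left out (5 without SKR6LR replicate 1, and 1 without SKR6 replicate 1 or 2 or any SKR6-Vector array), 6 with array weights, 5 with 1 weight per line, 7 with only the compared arrays and 1 at an adjusted p under 0.01. Without _x_at and _s_at probe sets 1 gene, B2M, was called lower there. With that choice, the difference of SKR6LR minus SKR6 from SKR6CA minus SKR6-Vector was called higher in 6 of 8 genes.

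Signs turned for differences near 0. In SKR6CA over SKR6-Vector, B2M ran from -0.0093 to 0.031 and HLA-F from -0.070 to 0.054 with single arrays left out, and they were -0.011 and 0.0041 with cyclic loess. In SKR6-Vector over SKR6, B2M ran from -0.0044 to 0.010 and NLRC5 from -0.087 to 0.036. In SKR6CA over SKR6, B2M ran from -0.0087 to 0.032. With the mean of its probe sets B2M was -0.12 in SKR6CA over SKR6 and -0.17 in SKR6-Vector over SKR6. Without _x_at and _s_at probe sets B2M was -0.43 and -0.56 in these comparisons, and in SKR6-Vector over SKR6 HLA-E was -0.023 and HLA-F 0.035. Replicate numbers did not pair the samples (correlations of their deviations from -0.0952 to 0.0755), and with the replicate number as a block the counts were 4 for SKR6CA over SKR6-Vector and 10 for SKR6LR over SKR6, as without it. The causes were not tested.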
